A study of Homo sapiens with 6 samples.

Results

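Keratins are the intermediate filament proteins of epithelial cells, and the keratin genes of the thyroid cancer line TPC1 were compared between cells overexpressing TFCP2L1 and cells with a vector. Members were the genes whose symbol is KRT followed by a number, with or without a closing letter A, B or C, without keratin-associated protein, pseudogene and antisense symbols. In addition, 1 further keratin gene with such a symbol was left out by name. This gave 26 genes of the 21173 in the table. TPC1 is a human papillary thyroid cancer cell line. The 6 RNA-seq libraries were 3 of TPC1 cells labelled TFCP2L1 OE, which overexpress the CP2-family transcription factor TFCP2L1, and 3 of TPC1 cells with the vector, labelled WT in genotype. The labels name neither the promoter that drives TFCP2L1 nor whether the cells were a pool or 1 clone. They also do not say whether the replicates came from different cultures, and p-values then reflect the spread between these libraries, which may be technical.

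A keratin filament is built from pairs of a type I (acidic) and a type II (basic) keratin, so an epithelial cell normally makes at least 1 of each. KRT8 and KRT18 are the pair of simple epithelia, and KRT7 is a further type II keratin of simple and glandular epithelia, the thyroid follicle among them. Stratified epithelia use other pairs, and the hair keratins, with type I members KRT31 to KRT40 and type II members KRT81 to KRT86, form the hard keratin of hair and nails. The type II genes, and KRT18, lie in a cluster on chromosome 12, and the other type I genes lie in a cluster on chromosome 17.

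Library totals ran from 37928516 to 38987434 reads. TFCP2L1 had 13578, 13885 and 12333 reads in the TFCP2L1 libraries, against 0, 0 and 1 in the vector libraries. Across the 14431 genes with enough reads for a test, edgeR's quasi-likelihood test called 1670 genes at a Benjamini-Hochberg adjusted p under 0.05, which is 11.6% of them. Of the tested genes 6.94% were called lower and 4.63% higher in TFCP2L1 cells.

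Sequences of the members that changed show which of them can be told apart by short reads. KRT81 and KRT86, neighbouring hair keratin genes, had the closest coding sequences among the pairs aligned, 94.2% identical over 1454 aligned bases in GENCODE v29, with an identical run of 605 bases. Their most different stretch of 120 coding bases, coding positions 1207 to 1326 in both, is printed with the 19 differing bases in capitals. It spans chr12:52286447-52287142 (GRCh38, minus strand, coding parts of 3 exons and the introns between) in KRT81 and chr12:52306240-52308450 (plus strand, likewise 3 exons) in KRT86.
KRT81: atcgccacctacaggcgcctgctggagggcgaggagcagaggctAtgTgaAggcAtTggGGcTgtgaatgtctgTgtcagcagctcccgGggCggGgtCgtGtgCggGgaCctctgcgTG
KRT86: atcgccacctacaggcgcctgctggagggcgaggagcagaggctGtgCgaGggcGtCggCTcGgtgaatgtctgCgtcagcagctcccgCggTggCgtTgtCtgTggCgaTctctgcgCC
Of all 50-base windows of the KRT81 transcript, 38.4% also occur in a KRT86 transcript, and 33.3% of those of KRT86 occur in KRT81. The labels do not say how reads mapping to both were counted, and the split between these 2 genes is uncertain. KRT34, a type I hair keratin, is 92.0% identical in coding sequence to its neighbour KRT33B, and 11.4% of its 50-base windows occur in another gene.

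The promoter of KRT34, the member with the largest fall, is shown with those of its neighbour KRT33B and of KRT10, an epidermal type I keratin that was not called. Each runs from 250 bases before to 50 bases after the start in RefSeq on GRCh38.p14, minus strand, at chr17:41382257-41382556, chr17:41369764-41370063 and chr17:40822565-40822864 in the order KRT34, KRT33B and KRT10. Capitals mark TATAAA.
KRT34: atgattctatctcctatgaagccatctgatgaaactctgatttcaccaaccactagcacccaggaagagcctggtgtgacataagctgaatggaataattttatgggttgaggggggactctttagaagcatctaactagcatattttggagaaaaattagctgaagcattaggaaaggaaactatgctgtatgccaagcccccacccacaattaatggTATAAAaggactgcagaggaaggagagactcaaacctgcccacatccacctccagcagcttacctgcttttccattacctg
KRT33B: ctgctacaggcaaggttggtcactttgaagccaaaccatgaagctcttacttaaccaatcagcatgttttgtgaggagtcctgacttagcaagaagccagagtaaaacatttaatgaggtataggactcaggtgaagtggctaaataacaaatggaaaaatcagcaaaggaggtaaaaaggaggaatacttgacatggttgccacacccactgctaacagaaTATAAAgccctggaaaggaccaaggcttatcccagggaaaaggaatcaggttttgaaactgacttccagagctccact
KRT10: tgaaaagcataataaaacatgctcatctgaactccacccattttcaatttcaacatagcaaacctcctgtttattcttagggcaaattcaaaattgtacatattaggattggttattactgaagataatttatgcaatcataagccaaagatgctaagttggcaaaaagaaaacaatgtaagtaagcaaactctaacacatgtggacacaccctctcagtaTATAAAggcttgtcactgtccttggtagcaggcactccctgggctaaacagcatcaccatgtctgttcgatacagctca
The TATAAA begins 31 bases before the start in KRT34, 28 in KRT33B and 29 in KRT10. RefSeq windows were found for 13 of the 26 keratins, 14 windows in all. They cover 4 tested genes, KRT34, KRT10, KRT8 and KRT79, and do not include KRT81, KRT86 or KRT7. Of the 14 windows, 7 hold TATAAA on either strand, at any place in the window, against 11.5% of all 35116 windows. In KRT84 and KRT39 it begins farther from the start, at -228 (on the opposite strand) and -85. The paired CP2 element, CCAG repeated after a gap of 6 bases, occurs on either strand in 0 of the 14 keratin windows and in 4.04% of all windows. The grainyhead site AACCGGTT occurs in 0 of the 14 and in 0.134% of all windows. TATAAA thus stood at a like distance in KRT34, which was called, and KRT10, which was not.

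Of the 26 keratins 12 could be tested and 14 had too few reads. In TFCP2L1 cells 4 of the 12 fell, KRT34, KRT81, KRT86 and KRT7, which is 33.3% against 6.94% of all tested genes. By edgeR's quasi-likelihood test 0 rose, with 1, KRT15, higher at an unadjusted p under 0.05, and DESeq2 also called 0 higher. The other 8 were not called. The median log2 fold change of the 12 was -0.14, against 0.00 for all genes tested. KRT34 entered the test through its vector libraries. KRT86 shares sequence with KRT81, so their calls may not be separate, and the 33.3% is a description and not a test of the family. In bulk RNA, fewer cells making a keratin and less RNA per cell cannot be told apart.

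**Figure D1:**
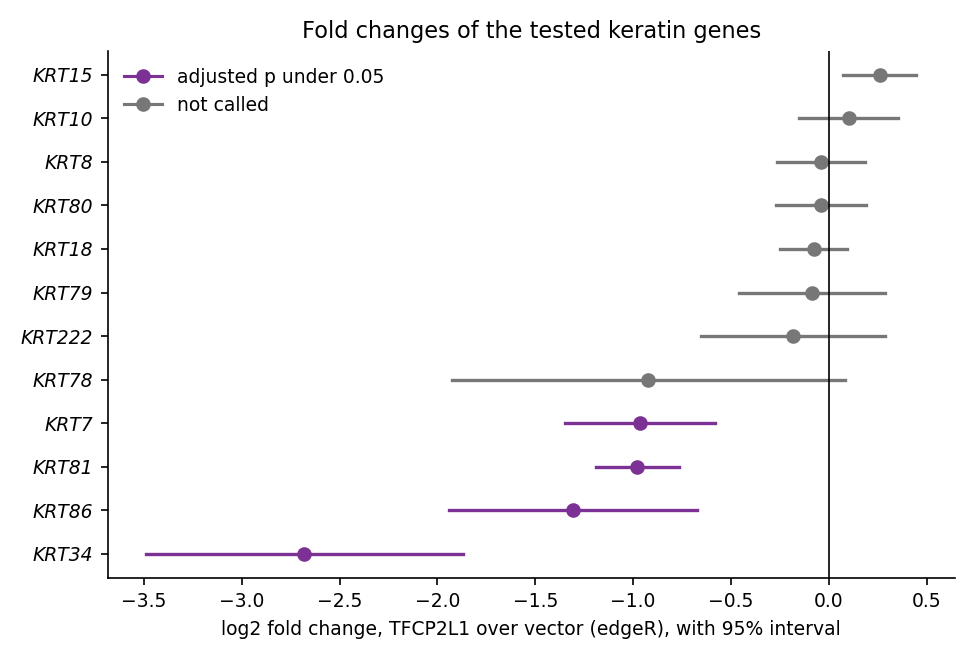
Log2 fold change of each tested keratin gene, TFCP2L1 over vector cells, from edgeR (points) with its 95% interval (lines), and genes called at an adjusted p under 0.05 in purple. KRT34, KRT86, KRT81 and KRT7 lie wholly below 0, KRT15 lies above 0 without being called, and KRT18, KRT8 and KRT80 lie close to 0.

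KRT81, a type II keratin of the hair shaft, was the most abundant member to change. It had 2780, 2165 and 2287 reads in the TFCP2L1 libraries, against 4860, 4074 and 4920 in the vector libraries. All 3 TFCP2L1 libraries were below all 3 vector libraries. Its level was 62.0 ± 8.26 CPM (reads scaled to library size with TMM factors; SD, n = 3) in TFCP2L1 cells and 122 ± 12.3 CPM in vector cells, a log2 fold change of -0.98 ± 0.10 (SE) and an edgeR adjusted p of 6.2e-06. TFCP2L1 cells thus kept 0.507 of the vector level. The gene lies on chromosome 12 from 52285913 to 52291534, minus strand (ENSG00000205426.10). It sits inside an intron-bearing KRT86 gene model on the other strand, with 0% of its exon bases shared in GENCODE v29. Overlap in the gene models behind the deposited counts was not checked.

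KRT86, the type II hair keratin closest to KRT81, also fell, on far fewer reads. It had 42, 29 and 59 reads in TFCP2L1 libraries and 112, 105 and 97 in vector libraries, with no overlap. Its log2 fold change was -1.31 ± 0.30, with an edgeR adjusted p of 0.00849. The call was lost on log2(FPKM + 0.1), where limma gave an adjusted p of 0.0540. Given the sequence that KRT86 shares with KRT81, the part of KRT81 reads in the KRT86 count was not tested. The length behind the deposited FPKM of KRT86 is 6548 bases, against 2394 exon bases in GENCODE v29, so its level per length depends on the gene model.

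KRT34, a type I hair keratin (chromosome 17, 41377650 to 41382403, minus strand, ENSG00000131737.5), showed the largest fold change of the family. It had 18, 9 and 24 reads in TFCP2L1 libraries, against 85, 141 and 94 in vector libraries. The highest TFCP2L1 library stood well below the lowest vector library. The level was 0.439 ± 0.199 CPM in TFCP2L1 cells and 2.83 ± 0.802 CPM in vector cells, a log2 fold change of -2.68 ± 0.38, with a 95% interval from -3.49 to -1.87 and an edgeR adjusted p of 0.000185.

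KRT81, KRT86 and KRT34 were the 3 testable genes of the 10 hair keratins in the set. KRT34 became testable through the vector libraries, where it was high, and KRT86 shares sequence with KRT81, so the 3 are not a count to set against the other keratins. The other 7 hair keratins had few reads. KRT33B, which neighbours KRT34 at a distance of 7.85 kb, had 1, 1 and 7 reads in TFCP2L1 libraries and 1, 9 and 11 in vector libraries, which overlap. KRT32 had 6, 1 and 1 reads in TFCP2L1 libraries and 3, 1 and 5 in vector libraries. KRT83, the neighbour of KRT86, had 3 reads in all, and KRT31, KRT39, KRT84 and KRT85 had between 1 and 3 reads each, so no difference was detectable in them at this depth. The summed FPKM (reads scaled by gene length and library total) of the 10 hair keratins was 33.0 ± 4.65 in TFCP2L1 cells and 64.9 ± 6.17 in vector cells (SD, n = 3 each), nearly all of it KRT81.

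KRT7, the type II keratin of simple and glandular epithelia (chromosome 12, 52232520 to 52252186, plus strand, ENSG00000135480.15), was the 1 keratin outside the hair group that fell. It had 231, 177 and 139 reads in TFCP2L1 libraries, against 386, 314 and 336 in vector libraries. The highest TFCP2L1 library was below the lowest vector library. Its log2 fold change was -0.96 ± 0.18, with an edgeR adjusted p of 0.00202. An antisense gene and a pseudogene on the other strand cover 7.67% of its exon bases.

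The simple epithelial pair KRT8 and KRT18 did not pass the test. KRT18, the type I partner and the most abundant member in both groups, had 6389, 6186 and 5618 reads in TFCP2L1 libraries and 6671, 5607 and 6362 in vector libraries. KRT8, its type II partner, had 1043, 904 and 1122 reads in TFCP2L1 libraries and 1056, 1037 and 976 in vector libraries. Both pairs of groups overlapped. The 95% interval of the log2 fold change was -0.25 to 0.09 for KRT18 and -0.26 to 0.18 for KRT8. The ratio of KRT8 to KRT18 in FPKM was 0.128 ± 0.0206 in TFCP2L1 cells and 0.125 ± 0.0128 in vector cells. Pseudogenes limit these levels, since 43 other genes hold some 50-base window of KRT18 and 36 some window of KRT8. In all, 31.8% of the 50-base windows of KRT18 and 41.3% of those of KRT8 occur in another gene. Exons of KRT18 and KRT8 also overlap on opposite strands, over 16.3% and 7.63% of their exon bases. How strand was handled is not in the labels.

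KRT15, a type I keratin of basal cells in stratified epithelia, was higher in all 3 TFCP2L1 libraries without being called. It had 3773, 3249 and 3254 reads in TFCP2L1 libraries, against 3067, 2683 and 2592 in vector libraries. Its log2 fold change was 0.26 ± 0.09, with an edgeR adjusted p of 0.0708. Without TFCP2L1 replicate 2 the edgeR adjusted p was 0.0498 and without TFCP2L1 replicate 3 it was 0.0359. With every library and no filter on low counts it was 0.0252, so the call turned on single libraries and on the filter. KRT10, the type I keratin of the upper epidermis, had 823, 621 and 702 reads in TFCP2L1 libraries and 677, 647 and 621 in vector libraries, with an edgeR adjusted p of 0.657.

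The remaining tested members were KRT80, KRT79, KRT78 and KRT222. KRT80, a type II keratin of differentiating epithelia, had 924, 771 and 941 reads in TFCP2L1 libraries and 826, 904 and 907 in vector libraries, a log2 fold change of -0.04 ± 0.11. KRT79, a type II keratin described in skin appendages, had 163, 172 and 157 reads in TFCP2L1 libraries and 184, 170 and 153 in vector libraries. KRT78, a type II keratin, had 15, 11 and 21 reads in TFCP2L1 libraries and 23, 36 and 28 in vector libraries. The KRT78 groups did not overlap, but its interval of -1.92 to 0.08 spans 0 and its edgeR adjusted p was 0.240. KRT222, a keratin-like gene on chromosome 17, had 119, 118 and 81 reads in TFCP2L1 libraries and 113, 120 and 118 in vector libraries. A gene model on the same strand shares 34.5% of the exon bases of KRT222. Over the 12 tested members, 5 had TFCP2L1 libraries wholly below and 1 wholly above the vector libraries, against 15.6% and 14.4% of all tested genes. The 5 include KRT34 and KRT86, with the limits given above.

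**Figure D2:**
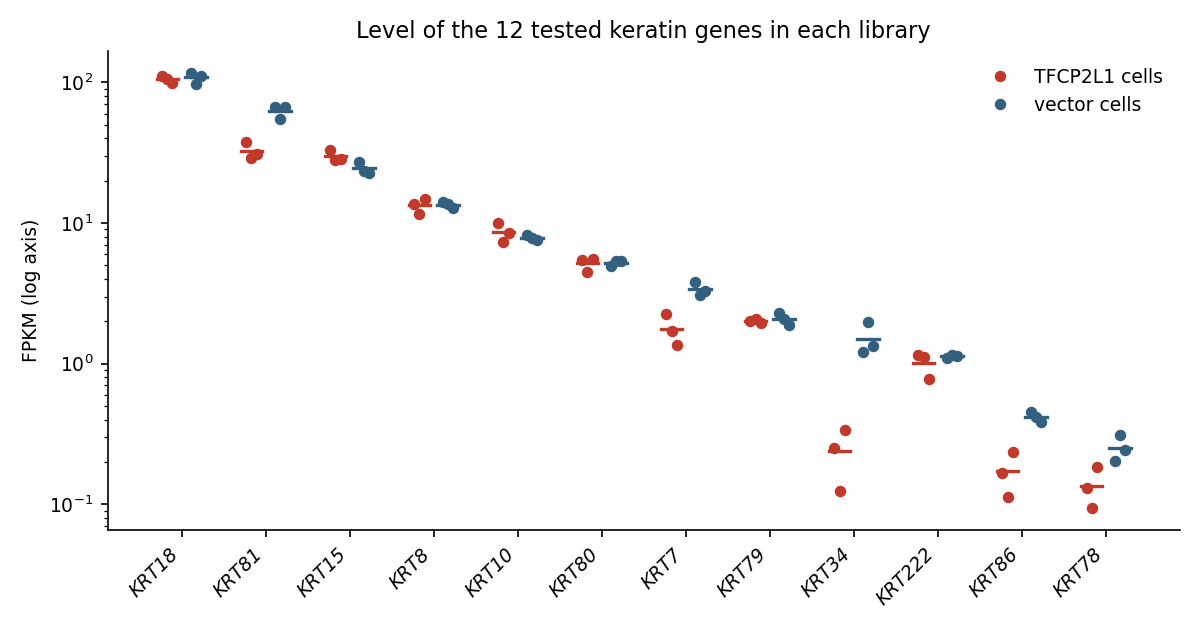
FPKM of each tested keratin gene on a log axis, with 1 point per library and a line at the group mean, TFCP2L1 cells in red and vector cells in blue (n = 3 each). The red points of KRT81, KRT7, KRT34, KRT86 and KRT78 lie below all blue points, and those of KRT15 lie above.

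Set side by side per length, the keratins ranged over nearly 3 orders of magnitude on the FPKM scale. In TFCP2L1 cells the order was KRT18 (105 ± 6.62 FPKM), KRT81 (32.5 ± 4.58), KRT15 (29.9 ± 2.77), KRT8 (13.4 ± 1.58), KRT10 (8.60 ± 1.29) and KRT80 (5.19 ± 0.605). In vector cells the same 6 genes stood first, with KRT18 at 109 FPKM (97.9 to 117 over the 3 libraries), KRT81 at 62.8 ± 6.58, KRT15 at 24.5 ± 2.33, KRT8 at 13.5 ± 0.586, KRT10 at 7.86 ± 0.369 and KRT80 at 5.24 ± 0.252. KRT81 and KRT15 overlapped in TFCP2L1 libraries, while in vector libraries KRT81 stood wholly above KRT15. KRT7 ranked below KRT79 in TFCP2L1 cells, where the ranges overlapped, and above it in vector cells, where they did not.

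Among the 26 members the sum of type II keratins was lower in TFCP2L1 cells, and most of that difference was KRT81. Type II keratins summed to 61.4, 48.9 and 55.1 FPKM in TFCP2L1 libraries, against 92.2, 80.2 and 90.9 in vector libraries. Type I keratins summed to 155, 142 and 136 FPKM in TFCP2L1 libraries and 154, 131 and 143 in vector libraries, which overlap. The ratio of type II to type I was 0.383 ± 0.0324 in TFCP2L1 cells and 0.614 ± 0.0188 in vector cells. The keratin left out by name is in neither sum, so the ratio is that of the members and not of all keratins. Without KRT81 the type II sum was 22.7 ± 2.20 FPKM in TFCP2L1 cells and 24.9 ± 0.844 in vector cells. KRT81 made up 16.2% ± 1.14 of the summed FPKM of the members in TFCP2L1 cells and 27.1% ± 1.24 in vector cells. The members took 0.0391% ± 0.00306 of all reads in TFCP2L1 cells and 0.0447% ± 0.00312 in vector cells.

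**Figure D3:**
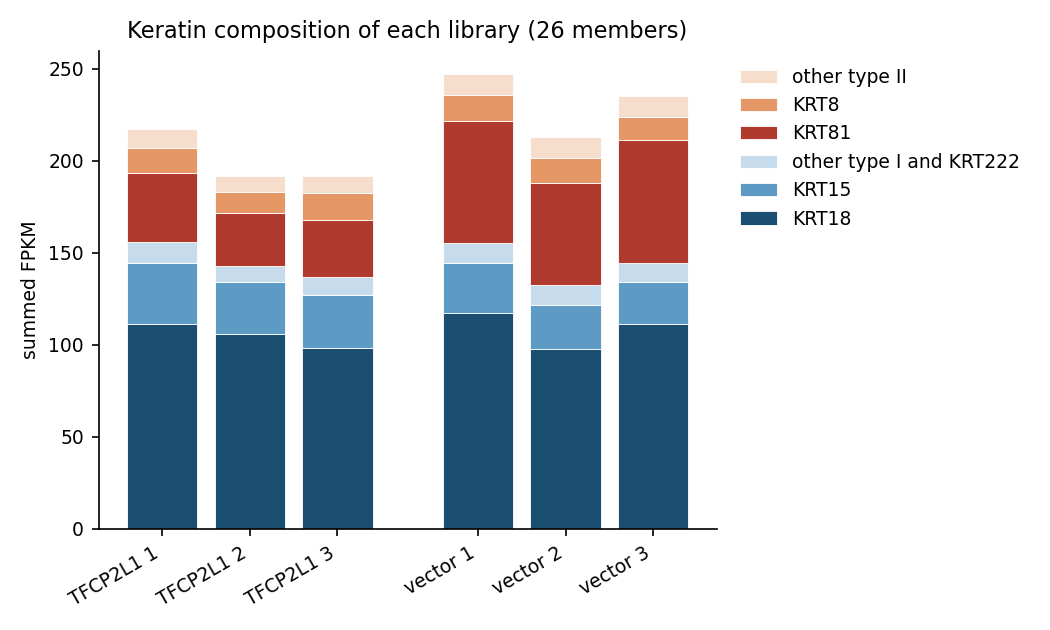
Summed FPKM of the 26 keratin genes in each library, with TFCP2L1 libraries on the left and vector libraries on the right, stacked from type I (blue) to type II (red and orange). The dark red KRT81 block is shorter in each TFCP2L1 library than in each vector library, while the dark blue KRT18 block is of like height.

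By position, 3 of the 4 keratins that fell were neighbours. KRT7, KRT86 and KRT81 lie along 1 stretch of chromosome 12, with 59.0 kb from the start of KRT7 to the end of KRT81, and the KRT86 model runs through it. The split of reads between KRT86 and KRT81 is uncertain, so these may not be 3 separate falls. Members between KRT86 and KRT79 had too few reads to test. KRT80 lies 40.5 kb before KRT7 and was not called, and KRT79, KRT78, KRT8 and KRT18, from 512 kb beyond KRT86 on, were not called either. KRT34 stands on chromosome 17 between KRT33B and KRT31, both with few reads. Among 32 other tested genes within 1000 kb of the chromosome 12 keratins, a window set after the values were seen, 1 was called lower and 1 higher. Among 47 such genes around the chromosome 17 keratins, 4 were called lower and 3 higher. Only genes whose symbol has a single entry in GENCODE v29 were counted, and the keratin left out by name was not removed. Over all tested genes 6.94% were called lower and 4.63% higher.

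**Figure D4:**
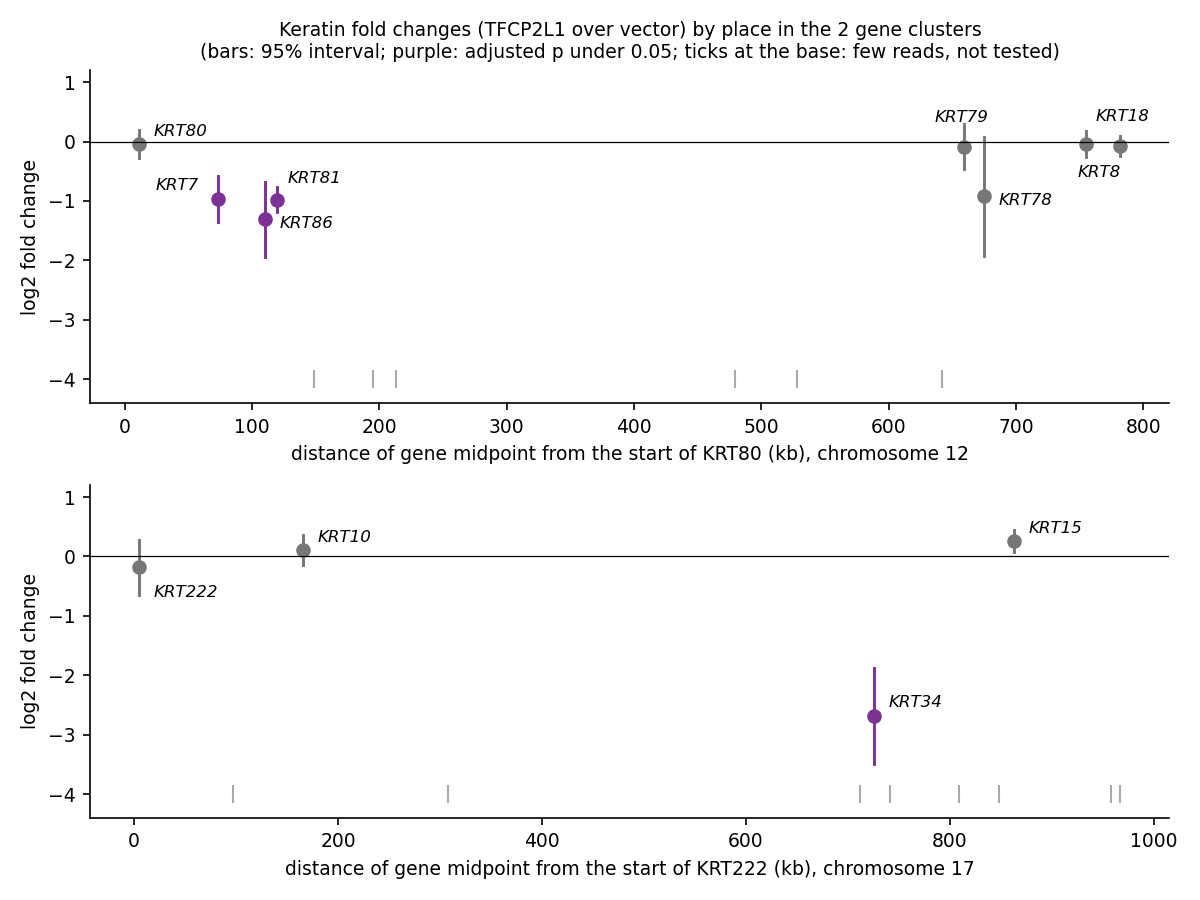
Log2 fold change of the keratin genes (TFCP2L1 over vector, with 95% interval) against distance in kb from the start of KRT80 on chromosome 12 (top) and of KRT222 on chromosome 17 (bottom). Purple genes were called, grey were not, and ticks at the base mark genes with few reads. KRT7, KRT86 and KRT81 stand together at the left of the upper panel and KRT34 stands alone in the lower one.

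The 14 keratins with few reads had between 1 and 30 reads each over the 6 libraries, 81 reads in all. Besides KRT33B and KRT32, the other 12 were each under 10 reads. They include KRT13 and KRT4, the pair of stratified mucosa, with 5 reads each, KRT16 and KRT17, type I keratins of wounded epidermis, with 1 and 4, and KRT2, of the upper epidermis, with 7. KRT25 and KRT77 had 1 read each, and the remaining 5 were the hair keratins KRT31, KRT39, KRT83, KRT84 and KRT85. Between 16 and 17 members had a read in a TFCP2L1 library and between 15 and 19 in a vector library.

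Genes that anchor keratin filaments were taken from lists. Counts in this and the later lists stand beside 6.94% lower and 4.63% higher of all tested genes. No list was tested as a set. In the list of desmosome and keratin linkers 12 of 16 genes had values and 7 were tested, of which 1 fell and 0 rose. JUP, the plakoglobin of desmosomes, fell to 29.3 ± 1.93 CPM in TFCP2L1 cells, against 40.1 ± 0.636 CPM in vector cells (log2 fold change -0.46 ± 0.09). DSG2, a desmosomal cadherin, was at 254 ± 17.02 CPM in TFCP2L1 cells and 282 ± 11.8 CPM in vector cells and was not called. DSP, desmoplakin, which ties keratins to desmosomes, had 0, 0 and 2 reads in TFCP2L1 libraries and 0, 5 and 1 in vector libraries. Among 9 tested genes of hemidesmosomes and plakins 1 fell and 3 rose. Those that rose included the integrin gene ITGA6 (log2 fold change 0.36 ± 0.07) and the transmembrane collagen gene COL17A1 (0.35 ± 0.08). The cytoskeletal linker gene MACF1 also rose (0.31 ± 0.09). Leaving out vector replicates 1 or 2, or TFCP2L1 replicate 1, ended the COL17A1 call (adjusted p 0.0522 to 0.0548), and leaving out any of those or TFCP2L1 replicate 2 ended that of MACF1 (0.0773 to 0.184).

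Genes of squamous differentiation, the programme in which epidermal keratins normally appear, were mostly too low to test. Of 25 listed genes 10 had values and 5 were tested, of which 2 fell and 0 rose. SBSN, suprabasin of the upper epidermis, had 166, 159 and 131 reads in TFCP2L1 libraries, against 515, 534 and 452 in vector libraries, a log2 fold change of -1.76 ± 0.15. FLG, filaggrin, which bundles keratin filaments, fell to 31.8 ± 1.44 CPM in TFCP2L1 cells, against 56.4 ± 8.27 CPM in vector cells. Of 7 keratin-associated protein genes 1 was tested, and KRTAP2-3 was not called, with 65, 52 and 99 reads in TFCP2L1 libraries and 36, 91 and 39 in vector libraries.

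Other intermediate filament genes were for the most part not called. Of 10 tested 1 rose, IFFO2 (log2 fold change 0.60 ± 0.11), and 0 fell. LMNB1, a lamin of the nuclear envelope, was at 46.7 ± 2.10 CPM in TFCP2L1 cells and 39.4 ± 1.89 CPM in vector cells and was not called (edgeR adjusted p = 0.0735, and 0.0490 without TFCP2L1 replicate 2). Among 16 tested genes for keratin organisers and modifiers 1 fell and 0 rose. DNAJB6, a co-chaperone that binds keratin, fell by 0.29 ± 0.08, and leaving out vector replicate 1, vector replicate 3 or TFCP2L1 replicate 1 ended the call (adjusted p 0.0602, 0.147 and 0.0781). FAM83H, a keratin organiser, was at -0.33 ± 0.11 and was not called (edgeR adjusted p = 0.0727, and 0.00648 without TFCP2L1 replicate 3).

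Transcription factors of epithelial keratin genes moved in both directions. Of 14 tested, which include the splicing regulator ESRP2 (not called), 3 fell and 2 rose. ELF3, an epithelial ETS factor, had 310, 267 and 257 reads in TFCP2L1 libraries, against 672, 684 and 580 in vector libraries, a log2 fold change of -1.26 ± 0.13. KLF4, a factor of epidermal barrier formation, fell by 0.29 ± 0.09, and leaving out any of vector replicates 1 and 3 or TFCP2L1 replicates 1 and 3 ended the call (adjusted p 0.0674 to 0.206). SOX9, a factor of hair follicle progenitors, rose by 0.45 ± 0.09. GRHL1, a grainyhead factor of the same superfamily as TFCP2L1, rose by 0.66 ± 0.20, a call that ended on leaving out any of vector replicates 1 and 3 or TFCP2L1 replicates 1 and 2 (adjusted p 0.0585 to 0.180). TP63, the master factor of stratified epithelia, had under 10 reads in all.

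Epithelial surface genes were checked because TPC1 is a papillary thyroid cancer line. Of 8 tested 4 fell and 0 rose. CLDN1, a tight junction claudin, had a log2 fold change of -0.84 ± 0.09 and MAL2, of apical transport, -0.83 ± 0.11. The serine protease inhibitor genes SPINT1 and SPINT2 had -1.71 ± 0.36 and -1.55 ± 0.37, and the SPINT2 call ended on leaving out vector replicate 1 (adjusted p 0.120). CDH1, the epithelial cadherin, had 1 read in all 6 libraries, and EPCAM had 2, 3 and 1 reads in TFCP2L1 libraries and 20, 1 and 1 in vector libraries, so these defining epithelial markers were at or near 0 in both groups. PAX8, of thyroid follicular cells, was at 478 ± 47.4 CPM in TFCP2L1 cells and 544 ± 24.4 CPM in vector cells. In the thyroid list 3 of 9 genes were tested and 0 were called, with FOXE1 at -0.32 ± 0.14. Without TFCP2L1 replicate 3, however, 2 were called lower by edgeR, PAX8 (-0.27 ± 0.08, adjusted p 0.0222) and FOXE1 (-0.47 ± 0.14, adjusted p 0.0202). The thyroid list had summed levels of 464 to 550 CPM in TFCP2L1 libraries and 540 to 593 in vector libraries.

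Markers of other cell types were set beside these results. Of the basal keratinocyte list, which holds COL17A1, 3 of 8 genes were tested, of which 2 rose and 1 fell. S100A2 was at 236 ± 61.4 CPM in TFCP2L1 cells and 124 ± 12.6 CPM in vector cells (log2 fold change 0.93 ± 0.18), a call that ended on leaving out vector replicate 2 (adjusted p 0.0613) or TFCP2L1 replicate 3 (0.0700). CDH3 was at -0.74 ± 0.18, a call that ended on leaving out vector replicate 3 (adjusted p 0.0765) or TFCP2L1 replicate 1 (0.0696). The list summed to 288 to 411 CPM in TFCP2L1 libraries and 193 to 221 in vector libraries, nearly all S100A2 and COL17A1. TP63, DSG3 and TRIM29 had under 10 reads each, and the basal keratins KRT5 and KRT14 of this list had no values. Fibroblast markers summed to 80.7 to 89.7 CPM in TFCP2L1 libraries and 106 to 117 in vector libraries, with 1 of 4 tested genes lower, FBLN1 (-0.41 ± 0.08), COL1A1 not called (-0.44 ± 0.18), and COL3A1 and COL1A2 under 10 reads. Endothelial markers summed to 42.5 to 68.9 CPM in TFCP2L1 libraries and 49.8 to 52.2 in vector libraries, nearly all EGFL7 (0.15 ± 0.15), with ESAM at 0.66 ± 0.52 and 0 of 3 called. The EGFL7 value turned on single libraries, with a log2 fold change of 0.33 and a call (edgeR adjusted p 0.0259) without TFCP2L1 replicate 2 and of -0.01 without TFCP2L1 replicate 3. Leukocyte markers summed to 99.0 to 126 CPM in TFCP2L1 libraries and 70.2 to 86.2 in vector libraries, with CD68 higher (0.63 ± 0.10) and ITGAX lower (-1.64 ± 0.22) of 3, while PTPRC, which defines leukocytes, had 0, 3 and 0 reads in TFCP2L1 libraries and 7, 1 and 0 in vector libraries. Their part in the keratin results was not tested.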

How the data were processed

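TPC1 cells overexpressing TFCP2L1 (n = 3 libraries) and with a vector (n = 3) were analysed. The authors deposited raw read counts and FPKM values for 21173 genes; the submitters' processing notes name fastp, HISAT2, HTSeq and GRCh38.p13. The deposited FPKM values equal the counts divided by 1 length per gene and the library total, with a spread in that length of at most 0.000115%. The labels do not state how strand was handled. Counts were tested with edgeR 4.0.16 in R 4.3.3: filterByExpr (minimum count 10), TMM, quasi-likelihood F-test with robust fit, two-sided, adjusted over 14431 genes at 0.05. Standard errors are the fold change over the square root of F. Alternatives were other scalings, no filter, DESeq2 1.42.0, limma 3.58.1 on log2(FPKM + 1 or 0.1), a replicate block and leaving out each library. All 26 keratins matched GENCODE v29 (GRCh38). Few reads means not kept by the filter.

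The members and lists were chosen with earlier results of these data known, and the keratin classes were assigned from general knowledge with the values known. Named genes were TFCP2L1, each tested keratin, keratins with few reads but at least 10 in all, and, per list, at most 4 called genes taken by size of change; lists with under 2 called genes gave their 2 lowest p-values instead. Other keratins with few reads, DSP, CDH1, EPCAM, PTPRC, TP63 and the other named markers near 0 were added after their values were seen. Replicates of a group differed by 7.80 to 45.5 in chi-square per gene, so none was a copy. Counting error and library spread limit genes with few reads. A comparison of protein sequences was not made here, and 1 gene that this naming rule picks from the lists is not reported here.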

Additional observations from a re-analysis of the deposited data

How the results depend on the processing

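KRT34, KRT81 and KRT7 kept their direction and their call under all 14 alternatives run, and KRT86 under 12 of 14. KRT86 had an adjusted p of 0.0540 on log2(FPKM + 0.1) and 0.0662 on log2(FPKM + 1) with no filter, both from limma, and the cause was not tested. On log2(FPKM + 1) the KRT34 log2 fold change shrank to -1.01 and that of KRT86 to -0.28, where the pseudocount is large beside their levels in TFCP2L1 cells. Keratins called higher numbered 1, KRT15, with no filter on low counts, and 0 to 1 with each library left out. Over all genes 1670 calls became 789 with limma on log2(FPKM + 1) with no filter and 934 to 1872 with each library left out, lowest without vector replicate 3 (934) and vector replicate 1 (943). Correlations of deviations from the group means were 0.072, -0.161 and -0.124 for same-numbered libraries and -0.108 to 0.220 for other pairs. With so few libraries these cannot show whether equal numbers share a culture or day, and the labels do not say. With the replicate block 977 genes and the same count of 4 keratins were called. Of 22 called companion genes that the naming rule picks, 10 kept their call under every alternative. Scalings moved the median of all genes by under 0.1 on the log2 scale.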
